A study of Homo sapiens with 4 samples.

Results

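RNA-seq of PANC-1 cells gave values for 16878 genes, of which 39 that belong to glycolysis and the hypoxia response were examined. They were taken by symbol from the deposited FPKM tables (FPKM counts the fragments of a gene relative to its length and to the total mapped in that library) and grouped by role into 17 glycolytic enzymes, 4 regulatory enzymes, 3 sugar and lactate transporters, 3 regulators of the hypoxia-inducible factor HIF and 12 HIF targets. All 39 had a row in the tables. PANC-1 is an established human pancreatic ductal carcinoma line. The comparison sets 2 libraries labelled siSIRT1, from cells 48 h after transfection with small interfering RNA against the NAD-dependent deacetylase SIRT1, against 2 libraries labelled Control at the same time. The question is which of these genes change when SIRT1 is reduced. All 4 libraries come from the same cell line, and 1 siRNA sequence is listed for SIRT1. What the Control cells received, and whether the libraries of a group came from separate cultures, is not given in the sources used here, so that p-values measure only the spread between these samples.

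Glycolysis splits glucose into pyruvate and makes ATP and NADH without oxygen. Lactate dehydrogenase then turns pyruvate into lactate, which regenerates the NAD that the pathway consumes, and tumor cells commonly run this route even when oxygen is present. HIF is a transcription factor made of an oxygen-labile alpha subunit and the stable partner ARNT. In normal oxygen, prolyl hydroxylases mark the alpha subunit for destruction by the VHL ubiquitin ligase. When oxygen is short, HIF binds DNA at the core letters ACGTG or GCGTG and raises glycolytic enzymes, glucose transporters, vascular growth factors and collagen-modifying enzymes.

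SIRT1 itself was at 10.5 and 10.3 FPKM in Control cells against 1.80 and 2.05 FPKM after knockdown (log2 fold change -1.96 ± 0.11 SE, adjusted p 1.33e-05), so that 18.6% of the Control level was left. Estimated depths ran from 8780000 to 9140000 reads per library. Of 18 markers of cell types, 15 had a row. The summed epithelial markers KRT7, KRT8, KRT18, KRT19 and EPCAM were at 3972 to 4194 FPKM in Control and 4674 to 5067 FPKM in siSIRT1. KRT8 and KRT18 made up most of this sum, and KRT7 overlapped between groups. The acinar and erythroid sums reached at most 0.15 FPKM and the endothelial sum at most 0.81 FPKM. The immune sum was 6.32 to 6.71 FPKM in Control and 4.46 to 5.42 FPKM in siSIRT1. The epithelial and immune sums moved with the groups, and their part in the results was not tested. Over all 12191 genes that averaged 1 FPKM or more, 37.1% passed the limma test at an adjusted p of 0.05 (24.0% higher, 13.1% lower in siSIRT1), and their median log2 fold change was 0.07. Scaling the libraries by the median of ratios moved that median to 0.0016 and the calls to 33.4% of genes, 16.7% higher and 16.7% lower. In bulk RNA, fewer cells of a kind and less RNA per cell cannot be told apart.

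Of the 39 genes, 35 reached a mean of 1 FPKM and were tested, while SLC2A3, EGLN3, CA9 and ANKRD37 were below it. Of the 35, 22 passed an adjusted p of 0.05, 18 higher and 4 lower in siSIRT1. Read against the 37.1% of all tested genes, the members were called more often, and more of them were higher. The members were chosen with earlier results of these data known, so this excess is a description and not independent support. Their median log2 fold change was 0.18. After median-of-ratios scaling 19 passed, 12 higher and 7 lower, with a median of 0.10. Of all tested genes, 33.4% passed after that scaling, 16.7% higher and 16.7% lower. The groups did not overlap in 31 of the 35 genes, 22 higher and 9 lower, where 69.0% of all tested genes did not overlap (43.8% higher, 25.2% lower). Leaving out either Control library lowered the number called, both among the members and over all tested genes. Of the 22 calls, 11 held under every alternative and every fit that left out 1 library. These were the rises of ENO2, PGAM1, GPI, PFKM, PFKFB3, PFKFB4, P4HA1, P4HA2, ADM and BHLHE40 and the fall of VEGFA. How many of all called genes held in the same way was not counted.

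**Figure D1:**
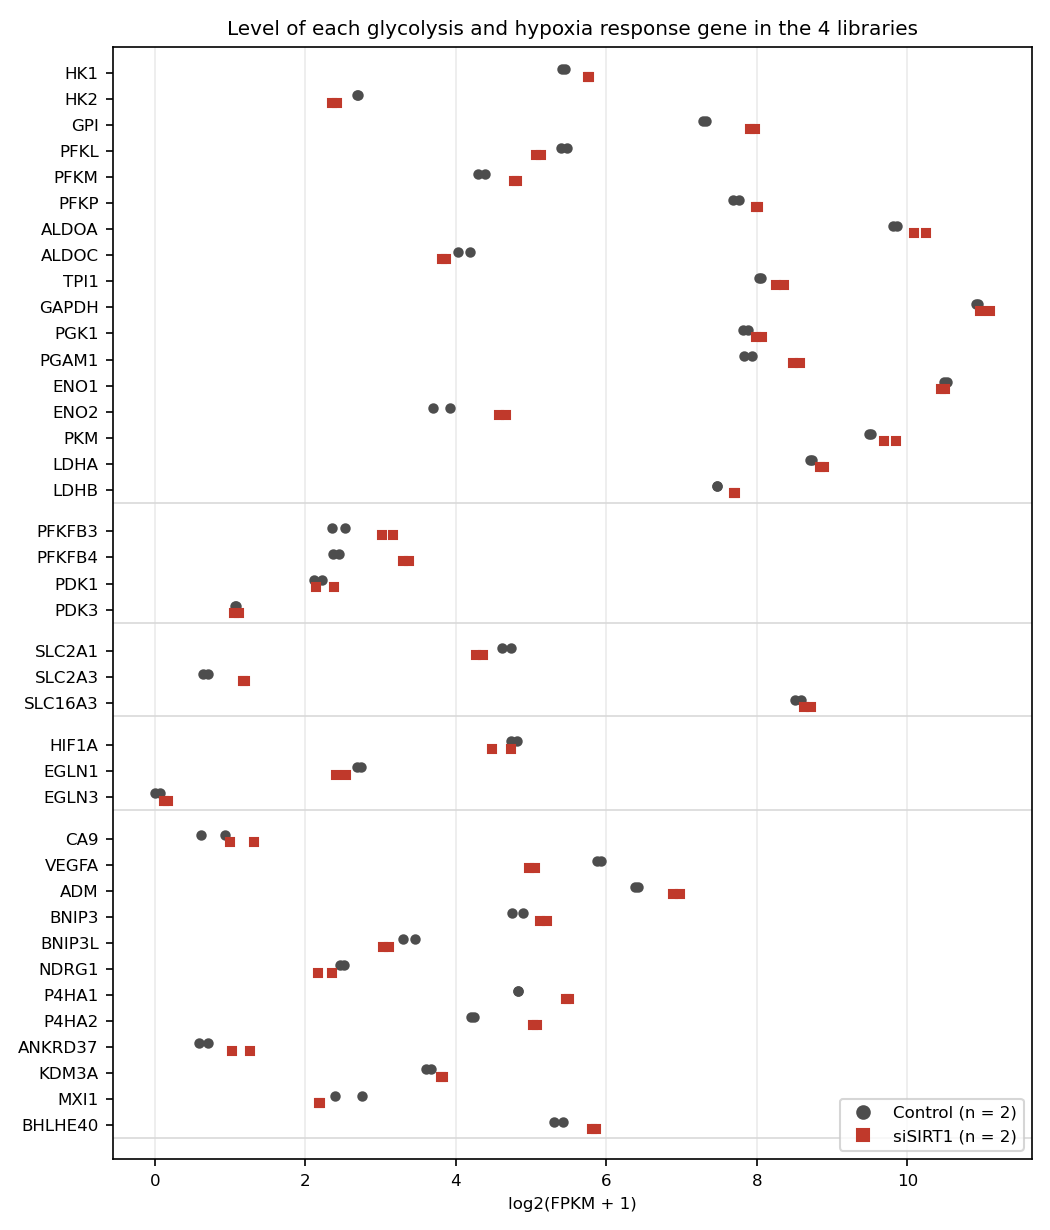
Level of each of the 39 genes in every library, on the log2(FPKM + 1) scale, with circles for the 2 Control and squares for the 2 siSIRT1 libraries, ordered by role. Levels run from EGLN3, at most 0.13 FPKM, to GAPDH, at 1919 to 2196 FPKM, and the VEGFA squares lie left of its circles while those of P4HA1 and P4HA2 lie right of theirs.

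The promoters of 7 called members are shown, chosen after their values were seen, as examples from the enzymes, the transporters and the HIF targets. Each has a single start in the RefSeq table. Each line holds the 250 bases before the transcription start, read 5′ to 3′ on the strand of the gene, from RefSeq on assembly GRCh38.p14. Capitals mark the HIF core letters ACGTG or GCGTG on either strand.
ENO2, chr12:6914330-6914579, plus strand: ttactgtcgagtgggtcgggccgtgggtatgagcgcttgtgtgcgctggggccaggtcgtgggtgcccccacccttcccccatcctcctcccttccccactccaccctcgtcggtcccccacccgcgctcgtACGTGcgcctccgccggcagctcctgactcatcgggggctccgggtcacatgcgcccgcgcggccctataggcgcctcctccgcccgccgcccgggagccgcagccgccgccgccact
GPI, chr19:34364742-34364991, plus strand: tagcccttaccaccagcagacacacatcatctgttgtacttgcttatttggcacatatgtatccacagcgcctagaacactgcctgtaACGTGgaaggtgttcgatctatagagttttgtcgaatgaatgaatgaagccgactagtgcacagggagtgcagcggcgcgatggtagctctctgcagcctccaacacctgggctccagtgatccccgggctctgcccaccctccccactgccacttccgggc
PFKFB4, chr3:48556804-48557053, minus strand: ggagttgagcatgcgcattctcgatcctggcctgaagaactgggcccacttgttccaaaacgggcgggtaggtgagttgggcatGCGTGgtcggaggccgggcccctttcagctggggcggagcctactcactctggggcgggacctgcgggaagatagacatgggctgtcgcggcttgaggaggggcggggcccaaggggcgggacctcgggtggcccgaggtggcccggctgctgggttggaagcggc
SLC2A1, chr1:42958869-42959118, minus strand: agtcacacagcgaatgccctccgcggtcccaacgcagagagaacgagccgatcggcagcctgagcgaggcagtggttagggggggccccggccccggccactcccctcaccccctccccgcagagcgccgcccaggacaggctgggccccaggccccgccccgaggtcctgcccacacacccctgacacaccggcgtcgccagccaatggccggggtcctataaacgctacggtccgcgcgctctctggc
ADM, chr11:10304823-10305072, plus strand: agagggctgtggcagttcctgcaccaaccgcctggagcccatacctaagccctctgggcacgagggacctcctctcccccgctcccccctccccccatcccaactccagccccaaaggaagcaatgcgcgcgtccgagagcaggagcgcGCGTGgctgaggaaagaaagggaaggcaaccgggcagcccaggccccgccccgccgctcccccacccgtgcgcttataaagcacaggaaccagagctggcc
P4HA1, chr10:73096867-73097116, minus strand: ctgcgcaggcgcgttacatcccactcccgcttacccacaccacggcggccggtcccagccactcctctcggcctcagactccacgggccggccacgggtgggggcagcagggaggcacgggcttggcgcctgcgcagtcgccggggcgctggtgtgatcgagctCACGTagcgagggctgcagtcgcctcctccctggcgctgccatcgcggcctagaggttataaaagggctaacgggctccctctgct
P4HA2, chr5:132227092-132227341, minus strand: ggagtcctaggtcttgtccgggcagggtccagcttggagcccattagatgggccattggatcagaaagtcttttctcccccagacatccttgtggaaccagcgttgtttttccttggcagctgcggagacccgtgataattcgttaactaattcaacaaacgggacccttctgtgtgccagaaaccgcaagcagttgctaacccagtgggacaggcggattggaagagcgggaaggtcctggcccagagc
In these windows the letters ACGTG stood 118 bases before the start of ENO2, 162 before GPI and 86 before P4HA1. GCGTG stood 166 bases before PFKFB4 and 101 before ADM. Neither was found in the windows of P4HA2, which rose, and SLC2A1, which fell. In the table as a whole, 35 of the 39 genes had an entry, with 65 windows, and BNIP3L, NDRG1, SLC2A3 and VEGFA had none. ACGTG was present in at least 1 window of 22 of the 35 genes (62.9%), against 28.9% of the 9984 tested genes with an entry, and in 18.5% of all 35116 windows. It was found in 11 of 18 genes that rose, 1 of 3 that fell and 10 of 14 others. The 14 others include EGLN3, CA9 and ANKRD37, which have an entry but were not tested. GCGTG was present for 18 of the 35 genes (51.4%), 53.9% of tested genes and 32.2% of windows. The 6-letter E-box CACGTG, which contains ACGTG on both strands, was present for 9 genes (25.7%), 11.3% of tested genes and 6.34% of windows. Genes with more listed starts had more windows to hold a match, and a match is only a description of the letters. The 39 genes include HIF targets by choice, so their share of ACGTG is not independent of how they were chosen.

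Glycolytic enzymes were mostly higher after the knockdown. Of the 17, all of them tested, 11 rose, 2 fell and 4 did not pass, with a median log2 fold change of 0.26. Among all tested genes 37.1% passed, 24.0% higher and 13.1% lower, and the median was 0.07. After median-of-ratios scaling 5 were higher and 3 lower, where 16.7% of all tested genes were higher and 16.7% lower. Fewer of the 17 were called when either Control library was left out, and the same held over all tested genes. Together they held 1.73% and 1.70% of the summed FPKM in Control and 1.90% and 1.85% in siSIRT1. The groups did not overlap, but with 2 libraries a group an exact two-sided permutation test cannot go below 0.333, the value reached here.

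Hexokinase, which traps glucose in the cell as glucose 6-phosphate, is represented by HK1 and HK2. HK1, the common form, was at 42.8 and 41.4 FPKM in Control cells against 52.9 and 53.3 FPKM after knockdown. The log2 fold change was 0.33 ± 0.06 (SE, adjusted p 0.00343). HK2, the inducible form and a HIF target, went the other way in level, from 5.42 and 5.50 FPKM to 4.12 and 4.37 FPKM. The 2 groups did not overlap for HK2, but its log2 fold change of -0.30 had an adjusted p of 0.0618, which was 0.0271 after median-of-ratios scaling and 0.258 without Control replicate 2. Without Control replicate 2 the adjusted p of HK1 was 0.0544. GPI, which converts glucose 6-phosphate into fructose 6-phosphate, was at 155 and 159.6 FPKM in Control cells against 251 and 239 FPKM after knockdown. Both siSIRT1 values lay far above both Control values (log2 fold change 0.63 ± 0.06 SE, adjusted p 0.000120).

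Phosphofructokinase, the committed step, is built from a liver, a muscle and a platelet subunit, encoded by PFKL, PFKM and PFKP. PFKM was at 19.8 and 18.5 FPKM in Control cells against 26.3 and 27.1 FPKM after knockdown (log2 fold change 0.46, adjusted p 0.00171). PFKP, the most abundant subunit here, was at 217 and 204 FPKM in Control cells against 258 and 252 FPKM after knockdown (log2 fold change 0.28, adjusted p 0.00716). PFKL moved against both. It was at 41.0 and 43.4 FPKM in Control cells against 34.1 and 32.6 FPKM after knockdown (log2 fold change -0.33, adjusted p 0.00504). The share of PFKL in the summed FPKM of the 3 subunits went from 14.8% and 16.3% in Control to 10.7% and 10.4% in siSIRT1, that of PFKM from 7.15% and 6.97% to 8.26% and 8.70%, and that of PFKP from 78.1% and 76.7% to 81.0% and 80.9%. The PFKP call was lost after median-of-ratios scaling (adjusted p 0.0708) and without Control replicate 1 (0.0624) or 2 (0.174), and the PFKL call without Control replicate 2 (0.0734).

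Aldolase cleaves the sugar into triose phosphates. ALDOA, the main form, was at 931 and 894 FPKM in Control cells against 1220.01 and 1091 FPKM after knockdown (log2 fold change 0.34, adjusted p 0.0101). The form best known from brain, ALDOC, fell from 17.2 and 15.3 FPKM to 13.1 and 13.6 FPKM (log2 fold change -0.27, adjusted p 0.0445). Both calls were lost in fits that left out 1 library. Without Control replicate 1 the adjusted p was 0.152 for ALDOA and 0.354 for ALDOC, and without Control replicate 2 it was 0.227 and 0.0727. ALDOC also lost its call without siSIRT1 replicate 1 (0.113) or 2 (0.0611). ALDOA was at 0.0843 after median-of-ratios scaling. Without the low-value filter the adjusted p was 0.0591 for ALDOA and 0.0905 for ALDOC. ALDOC was at 0.0723 with eBayes run without the trend.

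From the triose phosphates to pyruvate, the clearest rises were those of PGAM1 and ENO2. PGAM1, the phosphoglycerate mutase, was at 244 and 226 FPKM in Control cells against 379.6 and 357 FPKM after knockdown (log2 fold change 0.65 ± 0.07 SE, adjusted p 0.000193). ENO2, the enolase isozyme known as a neuronal marker and HIF target, was at 11.9 and 14.2 FPKM in Control cells against 24.4 and 22.9 FPKM after knockdown (log2 fold change 0.81 ± 0.10 SE, adjusted p 0.000394). In both genes both siSIRT1 values lay above both Control values, and both calls held under every alternative. The ubiquitous enolase ENO1 did not share this. It was at 1480.03 and 1428 FPKM in Control cells against 1449.7 and 1396 FPKM after knockdown, overlapping between groups (log2 fold change -0.03, adjusted p 0.766). The processing decided its direction, with 0.055 (adjusted p 0.0297) under quantile normalization and -0.16 (adjusted p 0.00579) under the length adjustment.

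Smaller rises in the lower part of the pathway depended on the scaling of the libraries and on other choices of processing. TPI1, the triose phosphate isomerase, was at 260.06 and 266 FPKM in Control cells against 329 and 303 FPKM after knockdown (log2 fold change 0.26, adjusted p 0.0119). PGK1, a kinase that makes ATP, was at 236 and 223 FPKM in Control against 267 and 254 FPKM (log2 fold change 0.18, adjusted p 0.0483). PKM, the pyruvate kinase, was at 732 and 719 FPKM in Control against 919 and 828 FPKM (log2 fold change 0.27, adjusted p 0.0218). In all 3 genes the groups did not overlap, and all 3 calls were lost after median-of-ratios scaling, at adjusted p-values of 0.109, 0.357 and 0.173. PGK1 and PKM lost theirs without the low-value filter. All 3 calls were lost with upper-quartile scaling and with eBayes run without the trend. They were also lost without Control replicate 1 (0.176, 0.206 and 0.241) and without Control replicate 2 (0.128, 0.441 and 0.288), and PGK1 without siSIRT1 replicate 1 (0.0852). GAPDH, which oxidizes glyceraldehyde 3-phosphate and is often used as a reference gene, was at 1969 and 1919 FPKM in Control cells against 2196 and 2006 FPKM after knockdown (log2 fold change 0.11, adjusted p 0.333). Its groups did not overlap. The adjusted p ran from 0.0327 without siSIRT1 replicate 2 to 0.803 without Control replicate 2, and the sign of GAPDH turned under the length adjustment.

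At the lactate step, LDHB, the subunit that favors the return from lactate to pyruvate, was at 176 and 177 FPKM in Control cells against 207 and 208 FPKM after knockdown (log2 fold change 0.23, adjusted p 0.0108). LDHA, the subunit that favors lactate and a HIF target, was at 424 and 415 FPKM in Control against 473 and 456 FPKM (log2 fold change 0.15, adjusted p 0.0901). Neither pair of groups overlapped. The adjusted p of LDHA ran from 0.0291 without siSIRT1 replicate 2 to 0.532 without Control replicate 2, and was 0.568 after median-of-ratios scaling. That of LDHB was 0.164 without Control replicate 1, 0.156 without Control replicate 2 and 0.114 after median-of-ratios scaling. Pseudogenes that carry the name of the parent gene, processed and unprocessed ones counted together, were taken from GENCODE release 44. They number 65 for GAPDH, 13 for PGAM1, 6 for LDHA, 5 for PKM and 4 each for TPI1 and ENO1. Reads from similar copies may have been counted for the parent.

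Ratios within a library do not depend on the scaling between libraries. HK1 over HK2 was 7.90 and 7.53 in Control cells against 12.8 and 12.2 after knockdown. ALDOA over ALDOC was 54.0 and 58.5 in Control cells against 93.4 and 80.1 after knockdown. ENO1 over ENO2 was 124 and 100.5 in Control cells against 59.5 and 60.9 after knockdown. The isozymes of each of these pairs therefore changed unequally, without overlap between groups. LDHA over LDHB moved much less, from 2.41 and 2.35 to 2.29 and 2.19. For each of the 8 ratios computed, the exact two-sided permutation p was 0.333, the smallest that 2 against 2 libraries allow.

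**Figure D2:**
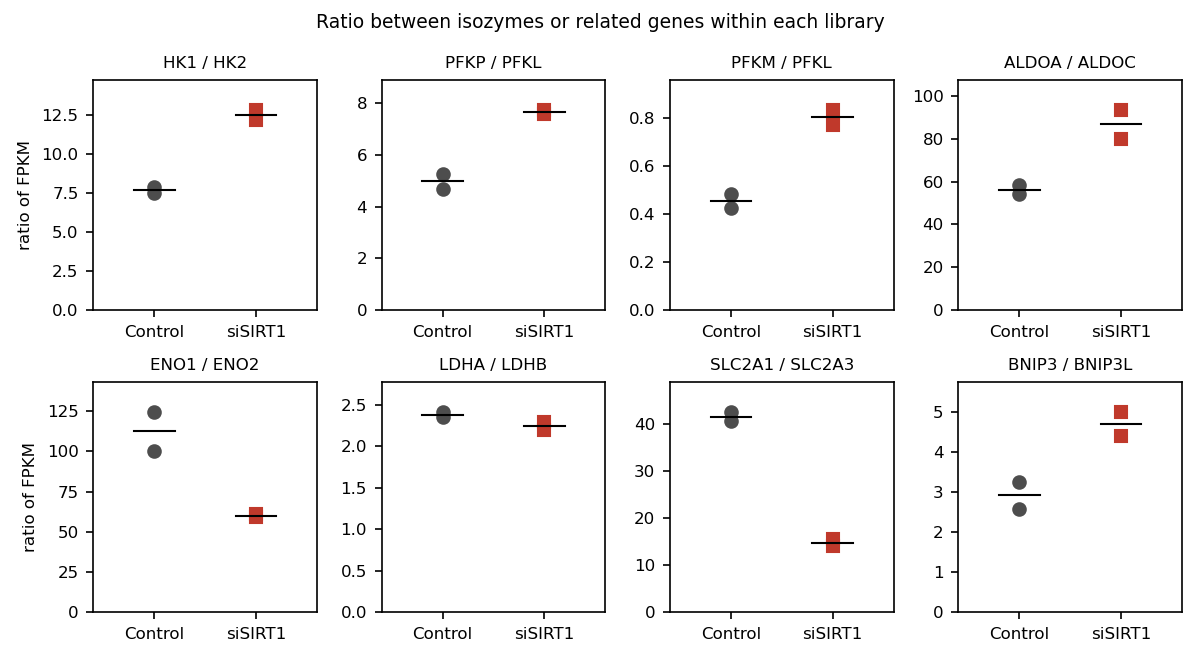
Ratio of FPKM between isozymes or related genes within each library (vertical axes start at 0), with circles for Control, squares for siSIRT1 and a line at the mean of 2 libraries. ENO1 over ENO2 falls from 124 and 100.5 to 59.5 and 60.9, while LDHA over LDHB stays between 2.19 and 2.41.

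Enzymes that set the pace of glycolysis from outside the main chain divided into a pair that rose and a pair that did not pass. PFKFB3 and PFKFB4 make and break fructose 2,6-bisphosphate, the strongest activator of phosphofructokinase, and both are HIF targets. PFKFB4 was at 4.17 and 4.44 FPKM in Control cells against 8.84 and 9.42 FPKM after knockdown, 2.12 times the Control mean. The log2 fold change, 0.93 ± 0.11 (SE, adjusted p 0.000310), was the largest rise among the tested members. PFKFB3 was at 4.76 and 4.09 FPKM in Control cells against 7.13 and 7.93 FPKM after knockdown (log2 fold change 0.65, adjusted p 0.00303). Both siSIRT1 libraries were higher than both Control libraries in each gene. PDK1 and PDK3 encode kinases that switch off pyruvate dehydrogenase and so hold pyruvate back from oxidation in the mitochondrion. PDK1 was at 3.32 and 3.64 FPKM in Control cells against 3.41 and 4.18 FPKM after knockdown (adjusted p 0.611). PDK3 was near 1 FPKM in every library, between 1.08 and 1.17 FPKM (adjusted p 0.923). Their groups overlapped, and the sign of PDK3 turned with median-of-ratios, upper-quartile and equal-sum scaling.

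Of the transporters, 2 were tested and 1 passed, where 37.1% of all tested genes did. SLC2A1, the GLUT1 glucose carrier and a HIF target, was at 25.6 and 23.4 FPKM in Control cells against 19.5 and 18.2 FPKM after knockdown. Both siSIRT1 values were lower (log2 fold change -0.36 ± 0.08 SE). The adjusted p was 0.00805, and 0.0985 without Control replicate 1. SLC2A3, the high-affinity carrier GLUT3, was at 0.63 and 0.55 FPKM in Control cells against 1.25 and 1.30 FPKM after knockdown, or about 21 and 19 reads against 41 and 44. It was below the filter and was not tested here. It shares most of its sequence with its neighbor SLC2A14, and how reads common to both were assigned is not given. SLC2A14 was at 0.48 and 0.39 FPKM in Control cells against 2.20 and 1.77 FPKM after knockdown. Only the siSIRT1 libraries carried it past the filter, so its call is not read as support for a rise. SLC16A3, the MCT4 exporter of lactate, was abundant at 383 and 363 FPKM in Control cells against 421 and 394 FPKM after knockdown. Its groups did not overlap (log2 fold change 0.13, adjusted p 0.160). The adjusted p ran from 0.0437 without siSIRT1 replicate 2 to 0.685 without Control replicate 2, and was 0.717 after median-of-ratios scaling.

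Of 15 other genes of sugar and monocarboxylate transport, 12 were tested, 4 rose and 2 fell, where 24.0% of all tested genes were called higher and 13.1% lower. The 4 include SLC2A14, which passed the filter only through the siSIRT1 libraries. SLC2A8, an intracellular hexose carrier, was at 18.6 and 17.8 FPKM in Control cells against 42.4 and 37.5 FPKM after knockdown (log2 fold change 1.09, adjusted p 3.87e-05). SLC2A12 fell from 8.24 and 8.0 FPKM to 1.85 and 1.84 FPKM (log2 fold change -1.68, adjusted p 2.52e-05). MPC2, a subunit of the mitochondrial pyruvate carrier, also rose (log2 fold change 0.43, adjusted p 0.00308). SLC2A4, the insulin-responsive GLUT4, was at 2.95 and 3.95 FPKM in Control cells against 2.34 and 2.08 FPKM after knockdown, with an adjusted p of 0.0375 that ran from 0.0661 to 0.295 without Control replicate 2, siSIRT1 replicate 1 or siSIRT1 replicate 2.

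Transcripts of the HIF regulators themselves did not pass. HIF1A, the oxygen-labile subunit, was at 27.0 and 25.6 FPKM in Control cells against 21.4 and 25.6 FPKM after knockdown. siSIRT1 replicate 2 overlapped Control (log2 fold change -0.16, adjusted p 0.208), and the siSIRT1 libraries decided the value. It was -0.035 (adjusted p 0.728) without siSIRT1 replicate 1 and -0.29 (adjusted p 0.0259) without siSIRT1 replicate 2. EGLN1, the main HIF prolyl hydroxylase, was at 5.43 and 5.70 FPKM in Control cells against 4.28 and 4.80 FPKM after knockdown. Its groups did not overlap (log2 fold change -0.25, adjusted p 0.123). EGLN3, an inducible prolyl hydroxylase, was listed at 0 and 0.05 FPKM in Control cells against 0.13 and 0.09 FPKM after knockdown, about 3 reads or fewer in each library, too few to detect any difference. HIF1A is controlled mainly through the stability of its protein, which these tables do not measure.

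Among 13 other genes of the HIF machinery, 12 were tested, 4 rose and 1 fell, and 37.1% of all tested genes passed. EPAS1, which encodes the alternative subunit HIF-2 alpha, was at 6.47 and 5.80 FPKM in Control cells against 9.26 and 9.95 FPKM after knockdown (log2 fold change 0.57, adjusted p 0.00321). ARNT, the partner of both alpha subunits, was at 11.25 and 11.8 FPKM in Control cells against 8.12 and 8.33 FPKM after knockdown (log2 fold change -0.44, adjusted p 0.00571). These genes moved in opposite directions, without overlap between groups in either. HIF1AN, the asparaginyl hydroxylase that blocks coactivator binding, rose with a log2 fold change of 0.34 (adjusted p 0.0104), and RBX1, a subunit of the VHL ligase, with 0.43 (adjusted p 0.0102). The adjusted p was 0.0622 for ARNT and 0.0705 for RBX1 without Control replicate 2, and 0.107 for HIF1AN without Control replicate 1. Fewer genes of this list were called when either Control library was left out, and the same held over all tested genes.

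HIF targets outside glycolysis changed in both directions. Of the 12, 10 were tested, 5 rose, 1 fell and 4 did not pass, where 24.0% of all tested genes were called higher and 13.1% lower. After median-of-ratios scaling 5 were higher and 3 lower, where 16.7% of all tested genes were higher and 16.7% lower. Without that scaling, the fall was that of VEGFA, the endothelial growth factor that drives vessel sprouting. VEGFA was at 57.7 and 60.0 FPKM in Control cells against 32.1 and 30.3 FPKM after knockdown, 53.0% of the Control mean. The call, at a log2 fold change of -0.89 ± 0.06 SE (adjusted p 3.63e-05), held under every alternative. With all 4 libraries, VEGFA and PFKFB4 had the largest changes among the tested members, and which was larger depended on the scaling, with -0.98 for VEGFA and 0.86 for PFKFB4 after median-of-ratios scaling. ADM, which encodes the vasodilator peptide adrenomedullin, went the other way. It was at 82.0 and 84.3 FPKM in Control cells against 125 and 117 FPKM after knockdown (log2 fold change 0.54 ± 0.06 SE, adjusted p 0.000305).

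The alpha subunits of collagen prolyl 4-hydroxylase, which stabilizes the collagen helix in the endoplasmic reticulum, rose together. P4HA1 was at 27.3 and 27.4 FPKM in Control cells against 43.0 and 44.4 FPKM after knockdown. The log2 fold change was 0.66 ± 0.06 (SE, adjusted p 0.000153). P4HA2 was at 17.8 and 17.4 FPKM in Control cells against 32.7 and 31.7 FPKM after knockdown (log2 fold change 0.84 ± 0.07 SE, adjusted p 7.23e-05). In both genes the replicates lay close together and the groups far apart. The lysyl hydroxylases PLOD1 and PLOD2, chosen for mention after their values were seen, act on the same collagen chains and fell. PLOD1 was at 178 and 171 FPKM in Control cells against 134 and 129.8 FPKM after knockdown (log2 fold change -0.40, adjusted p 0.00101), and PLOD2 at 62.0 and 63.8 FPKM in Control against 39.15 and 46.5 FPKM (log2 fold change -0.55, adjusted p 0.00137).

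BNIP3 and BNIP3L, receptors that mark mitochondria for autophagy, differed in level change. BNIP3 was at 28.6 and 25.9 FPKM in Control cells against 36.0 and 33.7 FPKM after knockdown (log2 fold change 0.35, adjusted p 0.00788). Its adjusted p was 0.0981 without Control replicate 2. GENCODE release 44 names 43 pseudogenes of BNIP3, processed and unprocessed ones counted together, so that its level is uncertain to that extent. BNIP3L was at 8.79 and 9.99 FPKM in Control cells against 7.20 and 7.66 FPKM after knockdown (log2 fold change -0.30, adjusted p 0.0510), and its adjusted p was 0.0205 after median-of-ratios scaling and 0.355 without Control replicate 2. BNIP3 over BNIP3L was 3.26 and 2.59 in Control cells against 5.0 and 4.4 after knockdown, without overlap.

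Of the HIF targets that regulate transcription, BHLHE40, a repressor of the circadian clock, passed the test. It was at 38.5 and 42.0 FPKM in Control cells against 54.9 and 56.9 FPKM after knockdown (log2 fold change 0.47 ± 0.07 SE, adjusted p 0.00105). KDM3A, a histone H3K9 demethylase, was at 11.1 and 11.8 FPKM in Control cells against 12.9 and 13.3 FPKM after knockdown (adjusted p 0.132). MXI1, which competes with MYC for its partner MAX, was at 5.75 and 4.24 FPKM in Control cells against 3.55 and 3.58 FPKM after knockdown (log2 fold change -0.38, adjusted p 0.0666). The Control libraries of MXI1 lay apart from each other and above siSIRT1. Its adjusted p was 0.471 without Control replicate 1, 0.0347 without Control replicate 2 and 0.0397 after median-of-ratios scaling. NDRG1, a stress-responsive gene linked to differentiation, was at 4.70 and 4.48 FPKM in Control cells against 3.48 and 4.10 FPKM after knockdown (adjusted p 0.182).

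CA9 and ANKRD37, both known to be induced strongly by hypoxia, were near the lower end of detection. CA9, the membrane carbonic anhydrase, was at 0.91 and 0.53 FPKM in Control cells against 1.49 and 0.99 FPKM after knockdown, about 12 and 7 reads against 19 and 13. ANKRD37 was at 0.63 and 0.50 FPKM in Control cells against 1.04 and 1.39 FPKM after knockdown, about 4 and 3 reads against 6 and 9. Both siSIRT1 values were above both Control values in each gene, but both were below the filter and were not tested.

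**Figure D3:**
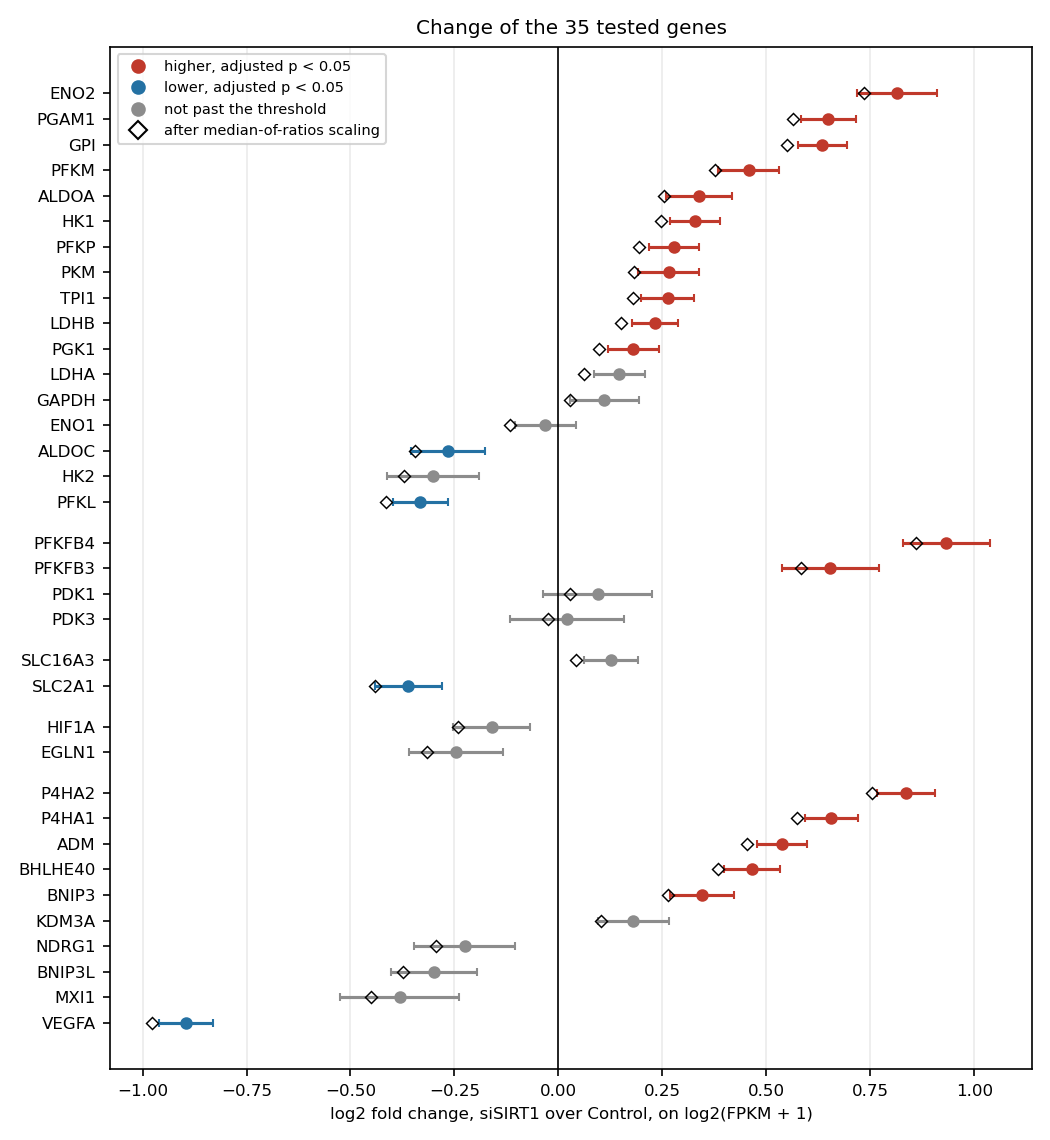
Log2 fold change of the 35 tested genes (horizontal axis, siSIRT1 over Control on log2(FPKM + 1), bars 1 standard error, limma fit of 2 against 2 libraries), in blocks by role and sorted within each, with open diamonds for the value after median-of-ratios scaling. PFKFB4 at 0.93 and VEGFA at -0.89 lie farthest from 0, and most glycolytic enzymes lie between 0.11 and 0.81.

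Other HIF targets rose and fell in equal number. Of 40 listed, 39 had a row, 32 were tested, 9 rose and 9 fell, where 24.0% and 13.1% of all tested genes did, with a median log2 fold change of -0.01 against 0.07 for all genes. After median-of-ratios scaling 7 were higher and 11 lower, where 16.7% of all tested genes were higher and 16.7% lower. IGFBP3, a carrier of insulin-like growth factors, was at 5.21 and 6.31 FPKM in Control cells against 33.8 and 34.5 FPKM after knockdown (log2 fold change 2.38, adjusted p 2.56e-06). TMEM45A rose from 1.27 and 1.48 FPKM to 5.63 and 5.24 FPKM (log2 fold change 1.44, adjusted p 9.29e-05), and JMJD6, a 2-oxoglutarate dioxygenase, with a log2 fold change of 0.68 (adjusted p 0.000437). The falls were led by DDIT4, an inhibitor of mTORC1, from 185 and 183 FPKM to 76.1 and 70.7 FPKM (log2 fold change -1.32, adjusted p 3.93e-06). ERRFI1, a feedback inhibitor of the EGF receptor, fell from 198 and 207 FPKM to 87.7 and 96.1 FPKM (log2 fold change -1.13, adjusted p 1.27e-05). These 5 calls held under every alternative. The GC and length adjustments left DDIT4 unchanged, because no transcript length or GC content was available for it.

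Isozymes and regulators outside the 39 genes were mostly weak. Of 18 listed, 14 had a row and 9 were tested, with 1 rise and 1 fall, where 37.1% of all tested genes passed. PGAM2, the muscle phosphoglycerate mutase, was at 3.81 and 5.39 FPKM in Control cells against 8.84 and 8.86 FPKM after knockdown (log2 fold change 0.83, adjusted p 0.00238), so that it rose with PGAM1. ENO3, the muscle enolase, was at 18.4 and 17.8 FPKM in Control cells against 13.8 and 11.02 FPKM after knockdown (log2 fold change -0.52, adjusted p 0.00583). Of the enolases, then, ENO2 rose, ENO3 fell and ENO1 did not pass.

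**Figure D4:**
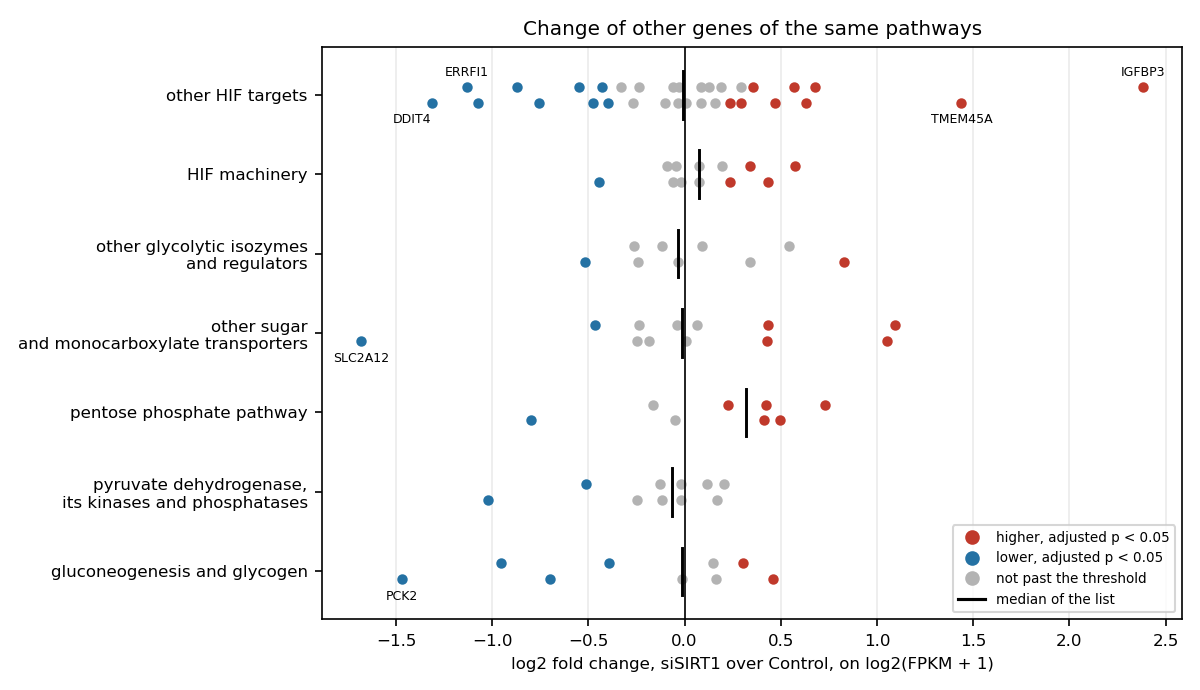
Log2 fold change (horizontal axis, siSIRT1 over Control on log2(FPKM + 1), 2 against 2 libraries) of other genes of the same pathways, 1 point per tested gene in 7 lists, colored by call, with a vertical line at the median of each list. Other HIF targets spread from -1.32 for DDIT4 to 2.38 for IGFBP3 around a median of -0.01, while the pentose phosphate pathway has its median at 0.32.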

How the data were processed

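RNA-seq tables of 4 PANC-1 libraries, 2 Control and 2 siSIRT1, were analysed. The authors deposited FPKM values per gene, rounded to 2 decimals, in 1 table per library. Bowtie2, HISAT, RSEM and ChIPseeker are named in the submitters' processing notes; versions, settings and genome build are not given in the sources used here, nor is strand use in the counting. FPKM divides by transcript length and library total, so abundant genes that change shift all others. Symbols were updated through a RefSeq gene table (16846 of 16878 identifiers matched).

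Genes averaging 1 FPKM or more over the 4 libraries were tested with limma 3.58.1 (R 4.3.3; lmFit and trended eBayes) on log2(FPKM + 1), a scale that understates changes of weak genes. P-values are two-sided and Benjamini-Hochberg adjusted over all 12191 genes, with a threshold of 0.05. The test was checked on simulated data. Depth was estimated from the steps of low FPKM values in 504 single-exon genes with 1 listed transcript, of which 70 to 89 per library were used, and reads behind a gene follow from it and the canonical transcript length in GENCODE release 44. Such read numbers are approximate, and counting error is only a part of the error. The members and lists were chosen with earlier results of these data known. SIRT1, all members and, per related list, the 3 largest called rises and falls are named, except 2 genes that are not reported here. The 7 lists hold 117 other genes, 5 without a row.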

Additional observations from a re-analysis of the deposited data

How the results depend on the processing

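The alternatives were quantile normalization, a smaller pseudocount (0.1), testing without the low-value filter, median-of-ratios, upper-quartile and equal-sum scaling, the replicate number as a block, eBayes without the trend, and leaving out each library in turn. Removing trends with GC content or with transcript length was added after seeing the data. Leaving out 1 library leaves a lone library that is assumed to vary like the others. The fits that left out 1 library called 2691 to 4608 genes against 4521, and 13 to 25 of the 39 genes against 22, with the lowest numbers without Control replicate 2 and the next lowest, 2744 genes and 14 members, without Control replicate 1. Under the other alternatives 18 to 26 members were called, 3531 to 5393 genes, and 41 to 50 genes of the related lists against 45. SIRT1 fell under every alternative, with log2 fold changes from -2.37 to -1.90. Same-numbered libraries deviated together only weakly (r = 0.12 across 12191 genes, which are not independent), with 2 pairs, so the numbers were not taken to pair the samples. The replicate block called 5393 genes and 26 members, with LDHA (adjusted p 0.0237), SLC16A3 (0.0457), BNIP3L (0.0281) and MXI1 (0.0298) past the threshold.

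Signs turned for uncalled genes: ENO1 to 0.055 with quantile normalization (adjusted p 0.0297, against -0.16 and 0.00579 under the length adjustment), GAPDH to -0.045 with the length adjustment, PDK1 to -0.022 without siSIRT1 replicate 2 (range without 1 library -0.022 to 0.21), and PDK3 to -0.024, -0.021 and -0.017 with median-of-ratios, upper-quartile and equal-sum scaling, -0.058 with the GC adjustment, -0.11 with the length adjustment and -0.010 without siSIRT1 replicate 2 (range without 1 library -0.010 to 0.051). The cause was not tested. Of the 22 called members, 15 kept their call under every alternative other than leaving out a library. Depth limits EGLN3, ANKRD37 and CA9.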

Other observations

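In the pentose phosphate pathway, which makes NADPH and ribose from glucose 6-phosphate, all 8 listed genes were tested, 5 rose and 1 fell, with a median log2 fold change of 0.32 against 0.07 for all genes, of which 24.0% were called higher and 13.1% lower. PGD, the 6-phosphogluconate dehydrogenase, rose with a log2 fold change of 0.49 (adjusted p 0.000958) and RPIA, the ribose 5-phosphate isomerase, with 0.73 (adjusted p 0.00326). H6PD, a hexose 6-phosphate dehydrogenase of the endoplasmic reticulum, fell from 20.2 and 20.7 FPKM to 10.95 and 11.8 FPKM (log2 fold change -0.80, adjusted p 0.000190). The median after median-of-ratios scaling was 0.23.

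Of 10 genes of pyruvate dehydrogenase, its kinases and phosphatases, all tested, 0 rose and 2 fell by limma, a share below the 37.1% called over all tested genes, and 1 was higher at an unadjusted p of 0.05. The falls were those of PDHB and PDK4. PDHB, a catalytic subunit, went from 35.8 and 32.3 FPKM to 23.9 and 23.2 FPKM (adjusted p 0.00107). The kinase PDK4 went from 1.71 and 1.91 FPKM to 0.36 and 0.41 FPKM, about 54 and 61 reads against 11 and 13. Only the Control libraries carried PDK4 past the filter of a mean of 1 FPKM, so its call is not read as support for a fall. Of 13 genes of gluconeogenesis and glycogen, 9 were tested, 2 rose and 4 fell, where 24.0% of all tested genes were called higher and 13.1% lower. After median-of-ratios scaling 1 was higher and 4 lower, where 16.7% of all tested genes were higher and 16.7% lower. PCK2, the mitochondrial enzyme that makes phosphoenolpyruvate, fell from 46.4 and 46.9 FPKM to 15.55 and 16.9 FPKM (log2 fold change -1.47, adjusted p 5.23e-06). PC, which carboxylates pyruvate, fell with a log2 fold change of -0.70 (adjusted p 0.00218). The glycogen phosphorylases went opposite ways. PYGB was at 277 and 271 FPKM in Control cells against 141 and 141 FPKM after knockdown (log2 fold change -0.96, adjusted p 1.34e-05), and PYGL at 19.15 and 21.4 FPKM in Control against 28.1 and 28.4 FPKM (log2 fold change 0.46, adjusted p 0.00215). UGP2, which makes UDP-glucose, had an adjusted p of 0.0155 that was 0.142 without Control replicate 1, 0.0584 without siSIRT1 replicate 1 and 0.0690 after median-of-ratios scaling.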
